A study of Mus musculus with 33 samples.

Results

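The 7 genes described here are Nefh, Nefm, Nefl, Glra1, Slc6a5, Slc17a6 and Spp1, chosen by name from 38393 features in each of 5 deposited count tables. They were grouped as neurofilament, brainstem and deep nuclei genes. That name is not a result of these data: Nefm, Nefl and Slc17a6 were lower in wild-type cerebellum than in wild-type cortex. All 7 were found in all 5 tables. The study sequenced polyadenylated RNA of cerebellum and cortex from male C57Bl/6J mice aged 1 month, with 33 libraries in 9 groups, to ask how the long noncoding RNA Cyrano and the microRNA miR-7 affect brain transcripts. CyrMut mice carried a mutated miR-7 site in Cyrano and gave 4 cerebellar libraries in experiment 1A, set against 3 wild-type (WT) cerebella. CyrKO mice lacked Cyrano (Cyrano-/-) and Mir7DKO mice were Mir7a1-/-; Mir7b-/-. They gave 4 cerebellar libraries each in experiment 1B, set against the same 4 WT cerebella. Experiment 2 held 3 Mir7DKO cerebella and 3 Mir7DKO cortices, against 4 WT cerebella and 4 WT cortices. The labels list Mir7a1 and Mir7b as the miR-7 genes deleted, and mature miR-7 is not measured in libraries of polyadenylated RNA, so the loss of miR-7 was not checked here. The submitters describe the replicates as biological.

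Neurofilaments are heteropolymers of a light (Nefl), a medium (Nefm) and a heavy (Nefh) chain that fill the axons of large myelinated neurons and set their calibre. In the cerebellum the output neurons of the deep nuclei are such cells. Many of them load glutamate with the vesicular transporter VGLUT2 (Slc17a6), whereas granule cells rely mainly on its relative VGLUT1. Glycinergic Golgi, Lugaro and nuclear neurons take glycine back up through GlyT2 (Slc6a5), and the glycine receptor of the adult brainstem and spinal cord is built on the alpha 1 subunit (Glra1). Spp1 encodes osteopontin, a secreted phosphoprotein that binds integrins and CD44 and is made by large hindbrain neurons and by activated microglia.

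The sequences that tie these genes to the mutated pathway are those of miR-7 and of its match in a member's 3′ UTR. RefSeq (GRCm38) lists the mature strand of miR-7a from Mir7-2 (chr7:78888295-78888317, + strand) and from Mir7-1 (chr13:58392841-58392863, - strand), and that of miR-7b from Mir7b (chr17:56243017-56243040, + strand). They are printed 5′ to 3′ with the seed, bases 2 to 8, in capitals, and both strands share that seed.
mmu-miR-7a-5p: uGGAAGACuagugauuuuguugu
mmu-miR-7b-5p: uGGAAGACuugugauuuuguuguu
The 3′ UTRs of the members were searched on the sense strand for TCTTCCA and GTCTTCC, the 7-letter matches of miR-7, in the annotated transcript with the longest coding sequence. Slc17a6 was the only member with such a match, a single TCTTCCA at chr7:51669946-51669952 on the + strand of GRCm38, 586 bases after the stop codon. TCTTCCA pairs with bases 1 to 7 of miR-7, so it leaves out base 8, the last base of the seed. The stretch of Slc17a6 is shown, with the match in capitals, because no other member carries either 7-letter motif in its 3′ UTR.
Slc17a6 3′ UTR: tattttgtgaTCTTCCAaaagc
The other motif, GTCTTCC, was found in none of the members. Matches of this length are common: TCTTCCA is held by 15.2% of 20639 annotated 3′ UTRs, and by 23% of the 2542 whose length is within 20% of that of Slc17a6. Either motif searched for is held by 20.8% of the 20639 and by 31.6% of the 2542. The overlapping 6-letter TCTTCC occurred 5 times in the 3′ UTR of Slc6a5, 2 times in that of Slc17a6 (1 of them within TCTTCCA) and once each in those of Nefh and Spp1. A match is a description of the letters, not a site.

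Library totals ran from 6.89 to 24.94 M counts. Levels are given as CPM, the counts of a gene per 1000000 counts of its library, scaled over all 33 libraries by the trimmed mean of M values (TMM). The tissue labels fitted their markers: 10 granule cell markers summed to 7366 to 8474 CPM in cerebellum against 166.6 to 197.4 CPM in cortex, and 10 markers of cortical projection neurons to 188 to 232 CPM in cerebellum against 1047 to 1180 CPM in cortex. Cyrano (listed as 1700020I14Rik) lay at 73.6 to 88.0 CPM in CyrKO cerebellum, against 1588 to 1941 CPM in WT cerebellum of the same experiment. It lay at 1926 to 2013 CPM in CyrMut cerebellum, against 1563 to 1898 CPM in its WT, and that level does not check a mutated site. The 18 Hox genes that mark the caudal hindbrain summed to at most 0.506 CPM in any cerebellar library.

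Single libraries stood apart in experiment 1B, and members' results that rest on them are given with and without them. In CyrKO replicate 2, 6 of the 7 members were at their lowest of all 26 cerebellar libraries, with Slc6a5 the exception. In the same library all 16 oligodendrocyte markers were the lowest of the CyrKO group, and 14 of them the lowest of all cerebellar libraries. They summed to 5968 CPM there, against 8492 to 8820 CPM in the other CyrKO cerebella. In Mir7DKO replicate 2, Slc17a6 stood at 39.6 CPM, against 11.2 to 16.6 CPM in the other Mir7DKO cerebella of that experiment, and other genes of thalamus and midbrain stood with it. Tcf7l2, a transcription factor of thalamus and midbrain, was at 40.0 CPM there against 6.72 to 9.51 CPM, Meis2 at 14.1 against 2.26 to 3.84 CPM, and Lhx9 at 8.39 against 0.104 to 0.645 CPM. Nrgn, a forebrain gene noticed after its values were seen, was at 26.6 against 1.44 to 1.56 CPM. Of the other markers in the thalamus and midbrain lists, some stood slightly above the other Mir7DKO cerebella of that experiment: Plekhg1 at 47.4 against 38.5 to 39.3 CPM, Calb2 at 338.9 against 297.2 to 314.1 CPM and Tfap2b at 92.4 against 80.7 to 90.4 CPM, while Pax7, Pou4f1 and Tnnt1 were higher at under 1 CPM. Others lay below them: Prkcd at 64.6 against 73.5 to 87.7 CPM, Rgs16 at 11.9 against 12 to 12.7 CPM, Otx2 at 13.4 against 13.6 to 16.9 CPM and Lhx1 at 70.7 against 74.5 to 80.1 CPM. Synpo2 lay among them, and Gbx2 was at 0 in all 4. Of 11466 genes with at least 5 CPM, 21 exceeded 2 times the next Mir7DKO library of the group, and 8 exceeded 2 times every other cerebellar library. What part this had in the values of Slc17a6 was not tested.

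**Figure D1:**
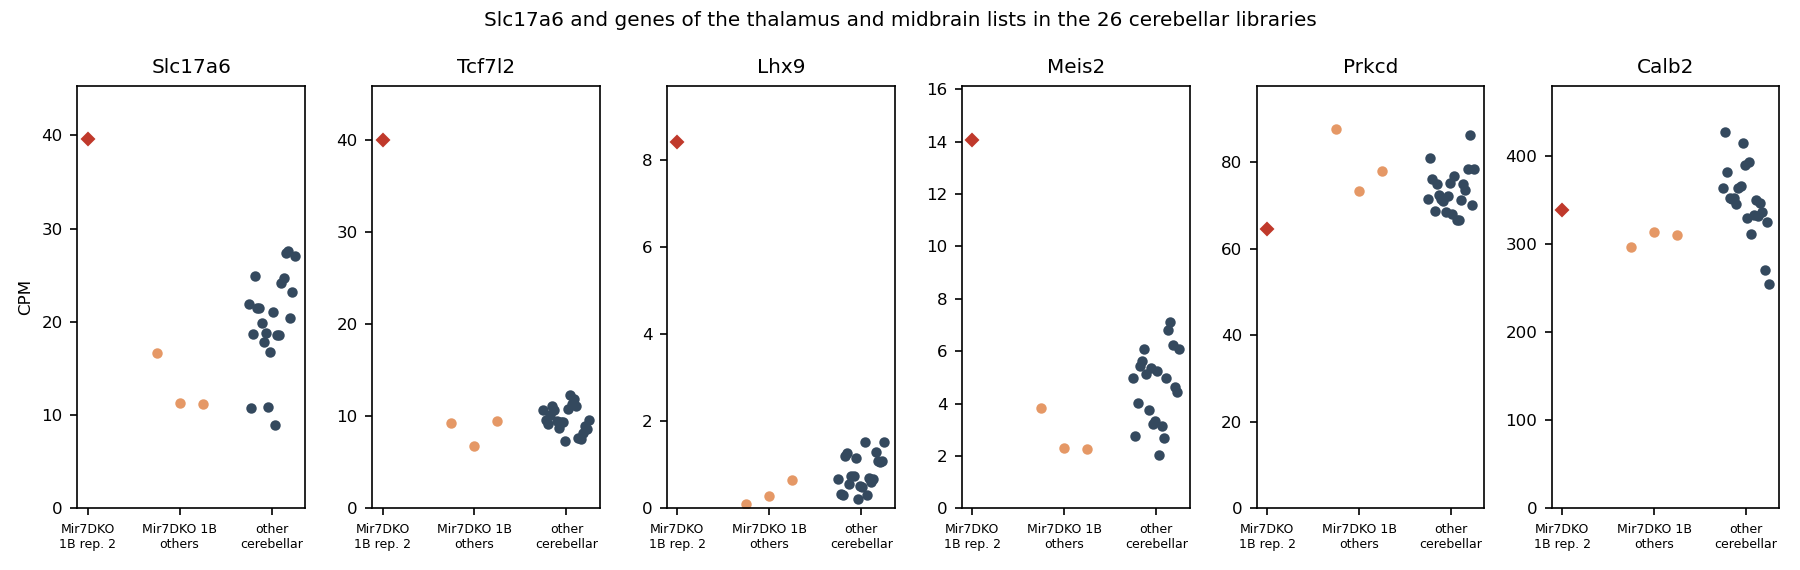
Levels (CPM) of Slc17a6 and of 5 genes of the thalamus and midbrain lists in the 26 cerebellar libraries, 1 panel per gene and 1 point per library, with Mir7DKO replicate 2 of experiment 1B (diamond) left of the other Mir7DKO cerebella of that experiment and of all other cerebellar libraries. That library is the highest in Slc17a6 (39.6 CPM), Tcf7l2 (40.0 CPM), Lhx9 (8.39 CPM) and Meis2 (14.1 CPM), and not in Prkcd (64.6 CPM) or Calb2 (339 CPM).

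All 7 genes were detected in every cerebellar library, across a wide range. Per kilobase of transcript, WT cerebellum of experiment 2 ordered them as Nefl at 62.1 ± 2.15 CPM per kb, Nefm at 53.0 ± 1.35, Nefh at 36.7 ± 1.2, Spp1 at 17.3 ± 1.13, Slc6a5 at 6.66 ± 0.262, Slc17a6 at 6.28 ± 0.429 and Glra1 at 0.728 ± 0.328 CPM per kb (SD, n = 4 each). Neighbours in that order were separated by more than their SDs except Slc6a5 and Slc17a6. Across the 26 cerebellar libraries of all genotypes, Slc6a5 varied least, from 41.3 to 52.9 CPM with a median of 45.9 CPM, so that the highest library had 1.28 times the lowest. The neurofilament genes spanned 1.5 to 1.91 times (Nefl 153 to 228 CPM, Nefh 91.8 to 152 CPM, Nefm 107 to 203 CPM). Spp1 spanned 2.99 times, from 8.79 to 26.3 CPM, and Slc17a6 4.46 times, from 8.89 to 39.6 CPM. Glra1, with a median of 0.819 CPM, spanned 22.2 times, and its lowest library held 1 read. In bulk tissue, fewer cells of a type and less RNA per cell cannot be told apart.

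**Figure D2:**
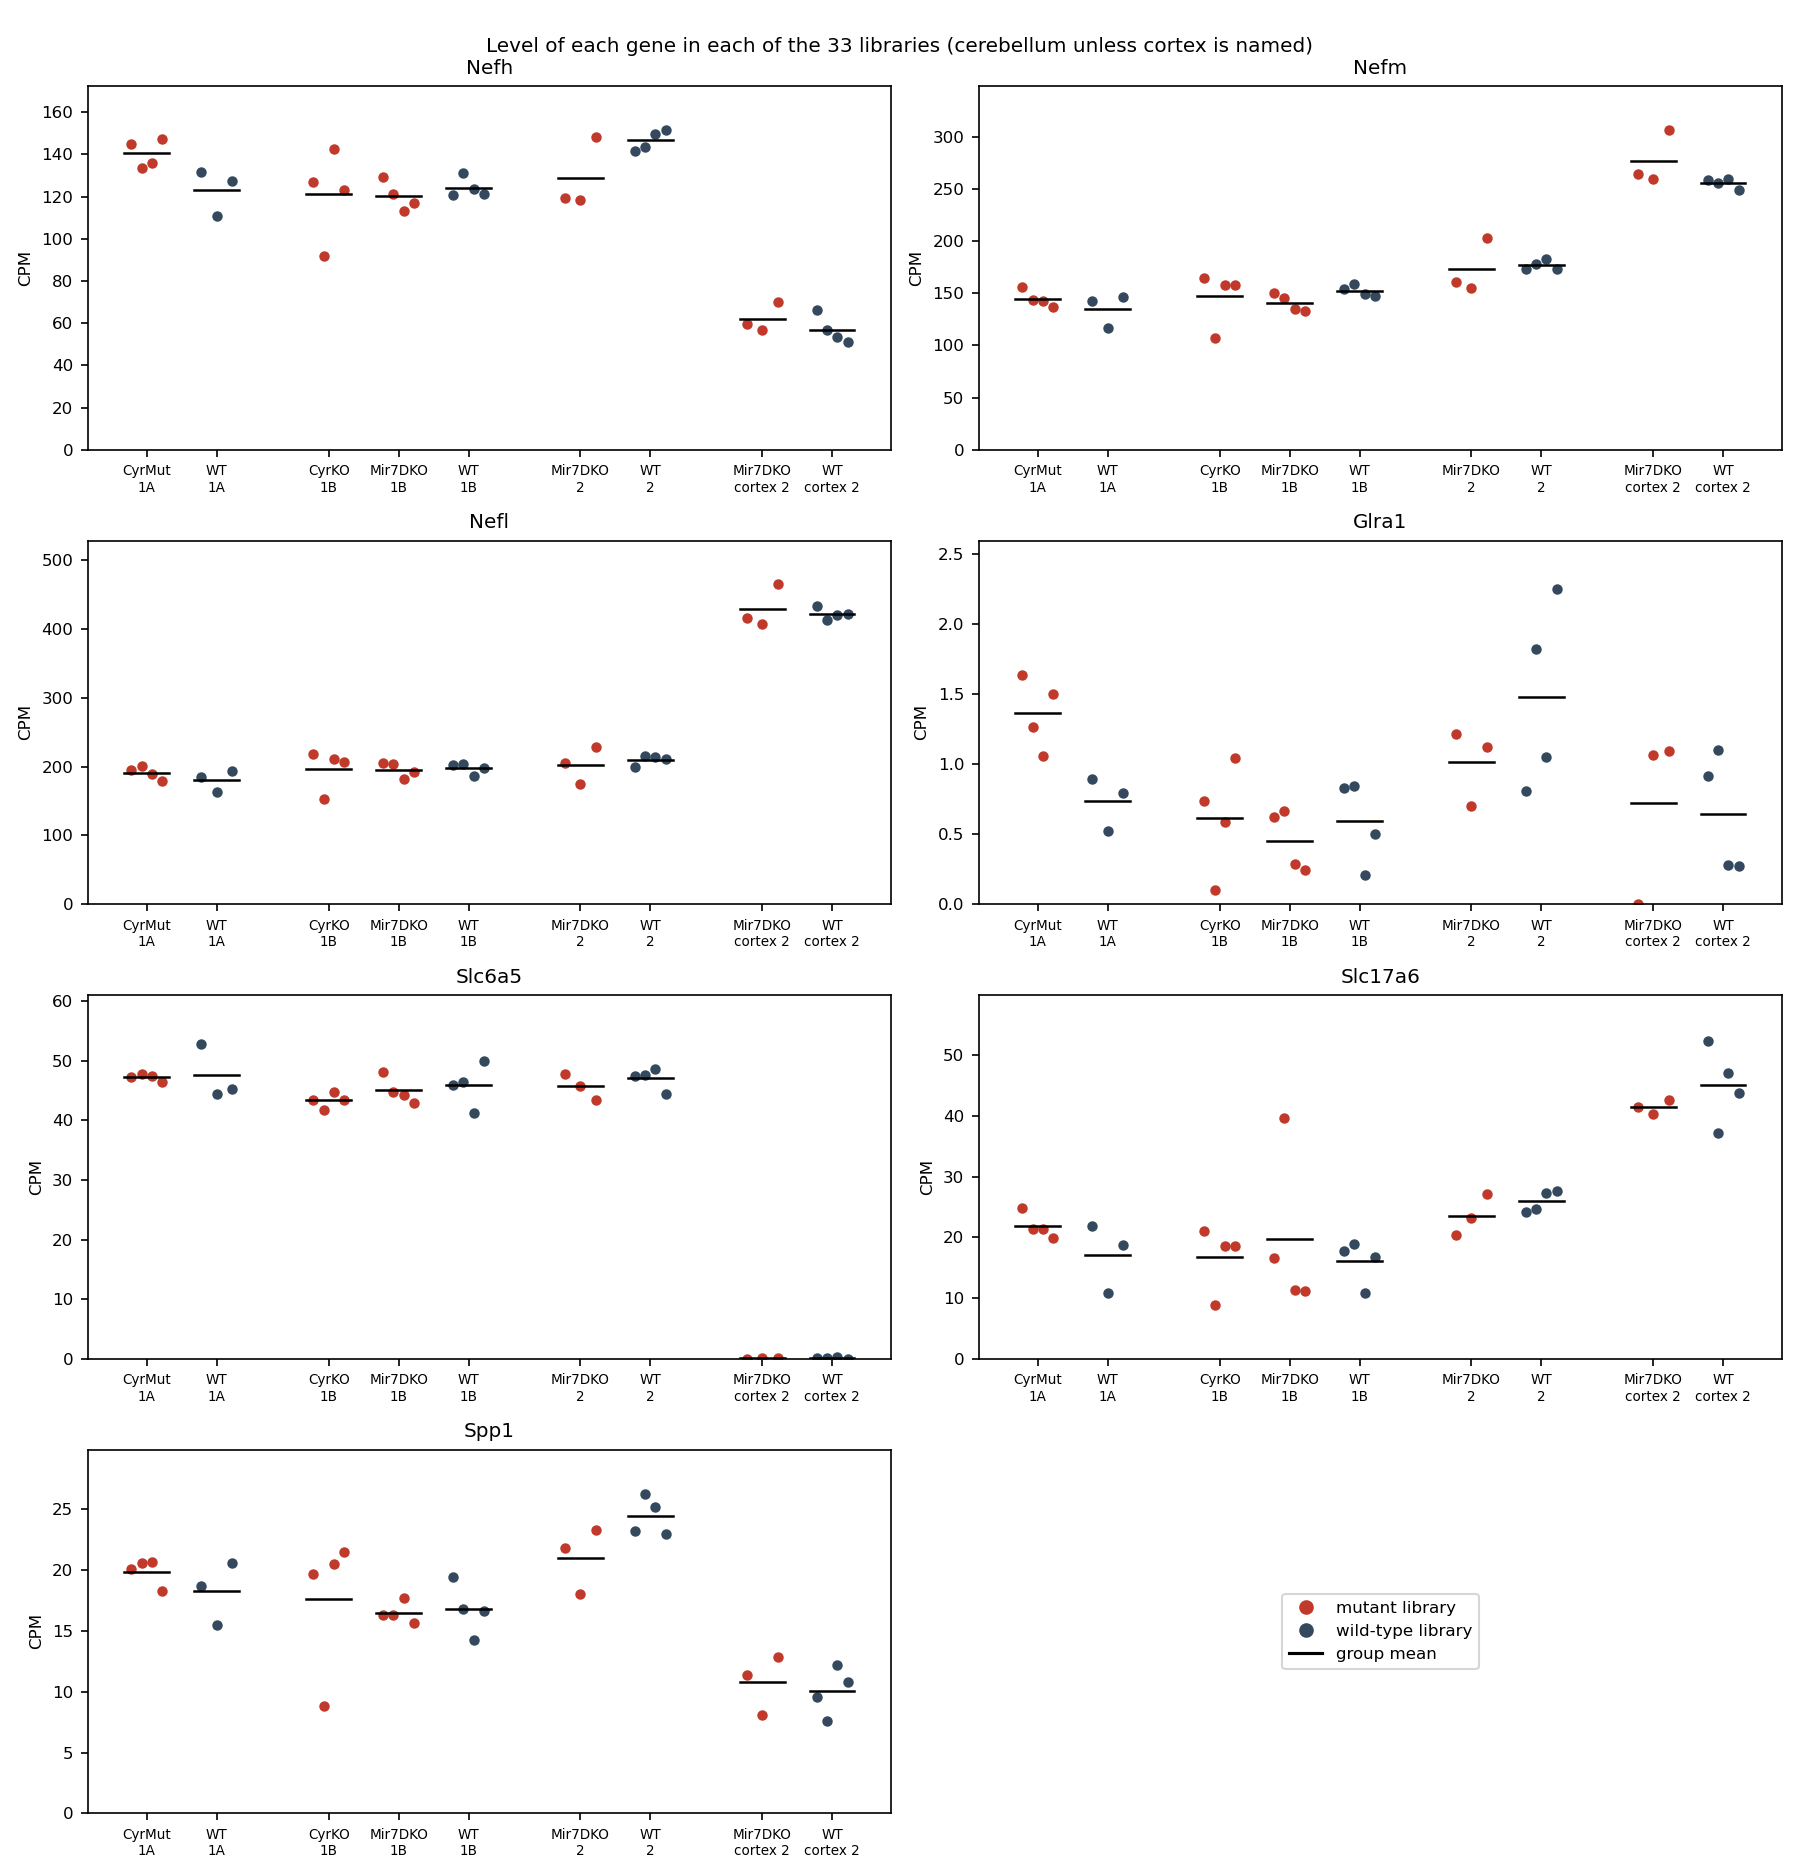
Level of each of the 7 genes (CPM) in every library, 1 panel per gene, with mutant groups left of the WT group of their experiment and bars at the group mean. Slc6a5 lies between 41.3 and 52.9 CPM in all cerebellar libraries, and CyrKO replicate 2 is the lowest cerebellar library for the other 6 genes.

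WT cerebellum and WT cortex of experiment 2 differed in all 6 members tested, and the neurofilament chains went in opposite directions. Nefh, Slc6a5 and Spp1 were higher in cerebellum, and Nefm, Nefl and Slc17a6 were lower. In this comparison 74.7% of 14001 genes tested passed an adjusted p of 0.05 (edgeR quasi-likelihood test, Benjamini-Hochberg adjustment), 37.3% as higher in cerebellum and 37.4% as lower, and 68.9% had groups that did not overlap, so that a call alone is the usual outcome between these tissues. Size and direction are therefore given for each gene.

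Nefh (ENSMUSG00000020396, chr11:4938754-4948064, - strand, GRCm38), the heavy chain, whose long tail is heavily phosphorylated in axons, stood at 142, 143, 150 and 152 CPM in WT cerebellum, against 66.4, 56.7, 53.4 and 51.3 CPM in WT cortex. Every cerebellar value was above every cortical one. The log2 difference of cerebellum over cortex was 1.31 (SE 0.062, edgeR adjusted p = 4.09e-15). Nefm (ENSMUSG00000022054, chr14:68082590-68124846, - strand), the medium chain, stood at 173, 178, 183 and 173 CPM in WT cerebellum, against 258, 256, 259 and 249 CPM in WT cortex. It was lower in cerebellum without overlap, by a log2 difference of -0.58 (SE 0.040, edgeR adjusted p = 5.04e-12). Nefl (ENSMUSG00000022055, chr14:68083863-68089095, + strand), the light chain on which the filament is built, stood at 199, 215, 213 and 212 CPM in WT cerebellum, against 433, 412, 420 and 422 CPM in WT cortex. The log2 difference was -1.05 (SE 0.039, edgeR adjusted p = 4.13e-17), again without overlap. The annotated spans of Nefm and Nefl overlap on opposite strands, and no source used here states how the counting treated strand. Reads of one could therefore be counted for the other, and how many was not measured. The shares and the correlation of Nefm and Nefl given below rest on the same counts.

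The 3 chains therefore stood in other proportions in the 2 tissues. Per kilobase, Nefh made up 24.2 ± 0.585% of the neurofilament level in WT cerebellum, against 6.60 ± 0.644% in WT cortex (SD, n = 4 each). Nefm held almost the same share, 34.9% in WT cerebellum and 35.5% in WT cortex, and Nefl held 40.9% in WT cerebellum against 57.9% in WT cortex. In the mutants, the share of Nefh was 26.1 ± 1.52% in CyrMut cerebellum against 24.7 ± 0.657% in its WT. It was 22.9% in CyrKO cerebellum and 23.1% in Mir7DKO cerebellum, against 23% in WT cerebellum of experiment 1B. In experiment 2 it was 22.4 ± 0.789% in Mir7DKO cerebellum against 24.2% in WT cerebellum, and 6.89% in Mir7DKO cortex against 6.60% in WT cortex. These shares carry no test of their own.

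Slc6a5 (ENSMUSG00000039728, chr7:49910146-49963856, + strand), the glycine transporter of glycinergic terminals, was the most tissue-restricted member. It stood at 47.5, 47.6, 48.6 and 44.4 CPM in WT cerebellum, against 0.131, 0.138, 0.284 and 0 CPM in WT cortex, where the libraries held 1, 1, 2 and 0 reads. From 2101 reads over the WT cerebella and 4 over the WT cortices, the ratio of levels was 344 (exact 95% interval 134 to 1265, counting error only). The edgeR adjusted p was 6.84e-21. Spp1 (ENSMUSG00000029304, chr5:104435118-104441050, + strand), osteopontin, stood at 23.2, 26.3, 25.2 and 23 CPM in WT cerebellum, against 9.54, 7.57, 12.2 and 10.8 CPM in WT cortex, without overlap. Its log2 difference was 1.24 (SE 0.11, edgeR adjusted p = 6.38e-10). Microglia are another source of Spp1. Their 10 markers summed to 114.9 to 127.8 CPM in WT cerebellum, against 373.7 to 396.7 CPM in WT cortex, and their part in the levels of Spp1 was not tested.

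Slc17a6 (ENSMUSG00000030500, chr7:51622006-51671119, + strand), the VGLUT2 gene, stood at 24.2, 24.7, 27.4 and 27.6 CPM in WT cerebellum, against 52.3, 37.2, 47.1 and 43.8 CPM in WT cortex. Every cerebellar value was below every cortical one, and the log2 difference was -0.84 (SE 0.085, edgeR adjusted p = 5.99e-09). The marker list of thalamus, another site of Slc17a6, summed to 484.5 to 499.8 CPM in WT cerebellum, against 81.7 to 91.1 CPM in WT cortex. Of 8 tested, 5 rose and 1 fell. Much of the sum was Calb2, at 332 to 350 CPM in WT cerebellum against 10.5 to 11.5 CPM in WT cortex. Tcf7l2 overlapped, at 7.51 to 11.1 CPM in WT cerebellum and 8.32 to 12.3 CPM in WT cortex. Lhx9 overlapped too, at 0.608 to 1.29 CPM in WT cerebellum and 0.654 to 1.70 CPM in WT cortex. What part thalamus had in the levels of Slc17a6 was not tested. Glra1 (ENSMUSG00000000263, chr11:55514238-55608198, - strand), the glycine receptor subunit, did not pass the filter on low counts here. It averaged 1.48 ± 0.668 CPM in WT cerebellum and 0.643 ± 0.428 CPM in WT cortex (SD, n = 4 each), with overlapping values. Without that filter its log2 difference was 1.19 (SE 0.40, edgeR adjusted p = 0.00744). That fit also gave much smaller p-values for abundant genes. For Nefh the edgeR adjusted p was 2.44e-122 without the filter, against 4.09e-15 with it. The p-value of Glra1 is therefore not read as a call. Per kilobase the cortical order was Nefl, Nefm, Nefh, Slc17a6, Spp1, Glra1 and Slc6a5, from 125 ± 2.56 to 0.0195 ± 0.0164 CPM per kb (SD, n = 4), with neighbours separated by more than their SDs.

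**Figure D3:**
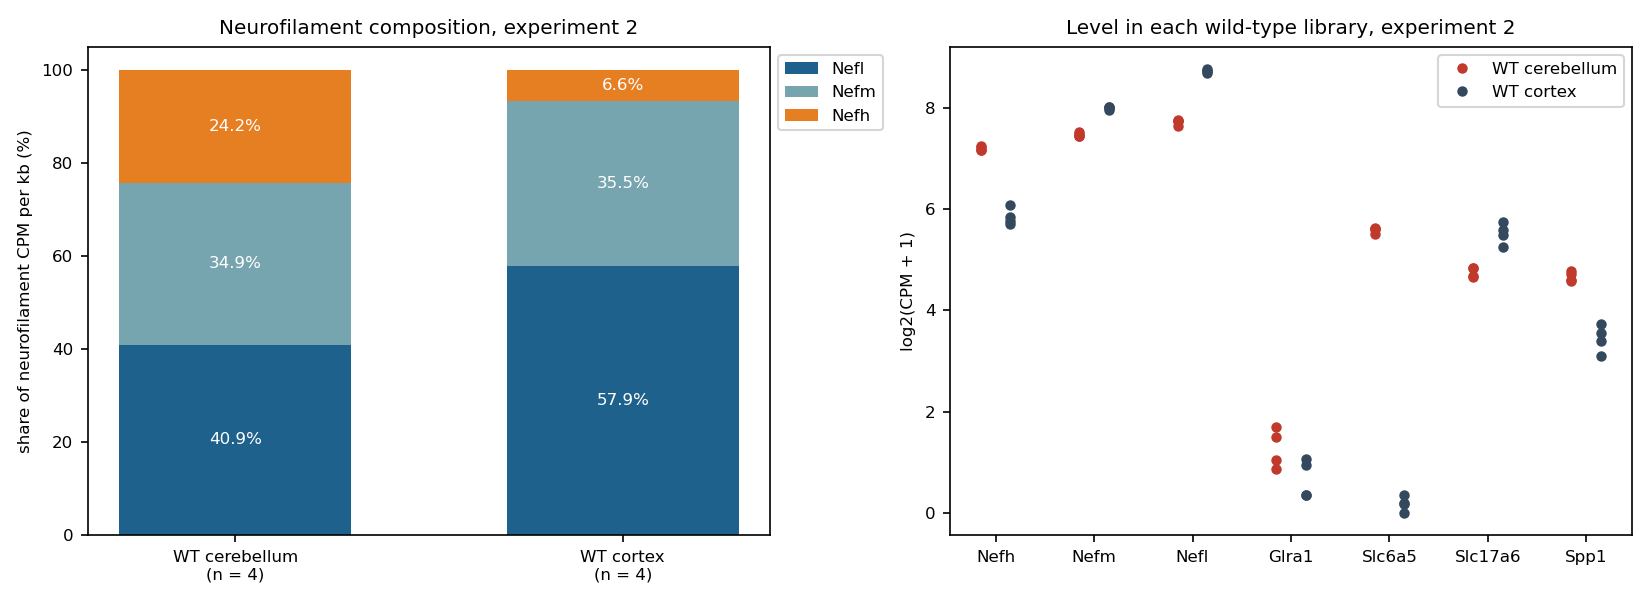
WT cerebellum and WT cortex of experiment 2: the left panel gives the mean share of Nefl, Nefm and Nefh in the summed neurofilament level (CPM per kb, %), and the right panel the level of each gene as log2(CPM + 1), 1 point per library. Nefh makes up 24.2% in cerebellum against 6.60% in cortex, and only Glra1 has overlapping values.

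Of the genes that work with the members, 67 from 5 pathway lists were tested between WT cerebellum and WT cortex, and 25 rose and 30 fell in cerebellum (edgeR adjusted p under 0.05), with a median log2 difference of -0.08 against 0.01 over all genes. Of 24 tested neurofilament partners and axonal cytoskeleton genes, 6 rose and 13 fell, with a median of -0.24. Kif5a, a kinesin motor that carries neurofilaments, was lower by a log2 difference of -1.94 (955 ± 21.2 CPM in WT cerebellum and 3534 ± 163 CPM in WT cortex, SD, n = 4 each). Cdk5r1, the p35 activator of the neurofilament kinase Cdk5, was lower by -1.92 and Map2 by -1.02, whereas the intermediate filament gene Vim was higher by 1.93. Of 13 genes of glycine transmission, 7 rose and 4 fell, with a median of 0.38. The glial glycine transporter Slc6a9 was higher by 1.26 (99.3 ± 4.52 CPM in WT cerebellum and 39.9 ± 3.96 CPM in WT cortex, SD, n = 4 each), and the receptor subunits Glra2 and Glra3 were lower by -1.98 and -4.26.

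Of 6 tested vesicular transmitter transporters and vesicle proteins, 2 rose and 3 fell in WT cerebellum. Slc17a7, which encodes VGLUT1, was lower by a log2 difference of -1.26 (518 ± 7.76 CPM in WT cerebellum and 1198 ± 52.8 CPM in WT cortex, SD, n = 4 each). Slc17a8, which encodes VGLUT3, was lower by -5.97, and Slc32a1, the vesicular transporter of GABA and glycine, was higher by 0.38. Of 11 receptors, proteases and relatives of osteopontin, 4 rose and 5 fell: the integrin subunits Itgav, Itga4 and Itga8 were lower by -1.09, -1.40 and -2.10, and the receptor Cd44 was higher by 1.02. Of 14 genes of large fast-firing neurons, 7 rose and 5 fell. Pvalb, the calcium buffer parvalbumin, was higher by 3.55 (401 ± 16.0 CPM in WT cerebellum and 33.2 ± 2.56 CPM in WT cortex, SD, n = 4 each), as was the synaptotagmin Syt2 by 2.98. Granule, Purkinje and cortical neurons hold several of these genes too.

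In CyrMut cerebellum no member passed the adjusted test, and 6 of 7 had a positive log2 difference from WT cerebellum, with a median of 0.14 against -0.00 over all genes. Without WT replicate 2 the members' median was 0.03, and without WT replicate 3 it was 0.23. Because members other than Slc6a5 varied together across cerebellar libraries (below), the shared sign is not a set of separate results. Of 14866 genes tested, 0.00673% passed an adjusted p of 0.05. DESeq2 called no member either, and 2 members, Nefh and Glra1, had an unadjusted edgeR p under 0.05, as did 740 genes in all. Those 2 were also the members whose groups did not overlap, which was so for 5.5% of all genes tested and, for groups that did not overlap with CyrMut higher, for 2.33%.

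Nefh stood at 145, 134, 136 and 148 CPM in CyrMut cerebellum, against 132, 111 and 128 CPM in WT cerebellum. The lowest CyrMut value lay just above the highest WT value. The log2 difference was 0.20 (SE 0.068, 95% interval 0.06 to 0.33, unadjusted p = 0.0144, edgeR adjusted p = 0.944). Nefm averaged 145 ± 7.85 CPM in CyrMut cerebellum (n = 4) and 135 ± 16.3 CPM in WT cerebellum (n = 3), a log2 difference of 0.10 (SE 0.080), and Nefl 191 ± 9.24 and 181 ± 15.5 CPM, a difference of 0.09 (SE 0.068). Both overlapped between the groups. Without WT replicate 2 the differences were 0.13 for Nefh, 0.01 for Nefm and 0.02 for Nefl. Glra1 stood at 1.64, 1.26, 1.06 and 1.5 CPM in CyrMut cerebellum, from 27, 17, 23 and 24 reads. In WT cerebellum it stood at 0.893, 0.520 and 0.792 CPM, from 20, 13 and 10 reads. The groups did not overlap, and the log2 difference was 0.91 (SE 0.28, 95% interval 0.36 to 1.46, unadjusted p = 0.00786, edgeR adjusted p = 0.944). An antisense transcript, Gm12236, overlaps Glra1, and without a stated strand setting its reads could not be told from those of Glra1.

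Slc17a6, the one member with a 7-letter miR-7 motif, stood at 24.9, 21.4, 21.5 and 19.9 CPM in CyrMut cerebellum, against 21.9, 10.8 and 18.7 CPM in WT cerebellum. WT replicate 2 lay well below the other libraries. The log2 difference was 0.38 (SE 0.19, 95% interval -0.00 to 0.75, edgeR adjusted p = 0.944). It was 0.11 without WT replicate 2 and 0.62 without WT replicate 1. Slc6a5 averaged 47.2 ± 0.545 CPM in CyrMut cerebellum (n = 4) and 47.5 ± 4.62 CPM in WT cerebellum (n = 3), a log2 difference of -0.00 (SE 0.071). Spp1 averaged 19.9 ± 1.11 CPM in CyrMut cerebellum and 18.3 ± 2.58 CPM in WT cerebellum, a difference of 0.14 (SE 0.10), and 0.03 without WT replicate 2. Of 13 lists of markers of other cells or regions, 2 had sums that did not overlap, both lower in CyrMut: striatal neurons at 281.5 to 313.2 CPM in CyrMut cerebellum against 332.9 to 426.5 CPM in WT cerebellum, and thalamus at 499.2 to 510.5 CPM in CyrMut cerebellum against 521.9 to 588.5 CPM in WT cerebellum. Within the thalamus sum, Calb2 stood at 345 to 352 CPM in CyrMut cerebellum against 364 to 427 CPM in WT cerebellum. Prkcd, Tcf7l2 and Lhx9 of that list overlapped between the groups. Choroid plexus markers summed to 1004, 48.2, 1271 and 856 CPM in CyrMut cerebellum, against 395, 42.6 and 41.3 CPM in WT cerebellum, with a median log2 difference of 2.18 and none of 13 past the test. Markers of brainstem monoamine and cholinergic neurons reached 13.2 CPM in CyrMut replicate 2 and summed to 5.94 to 7.51 CPM in the other CyrMut cerebella, against 5.54 to 7.56 CPM in WT cerebellum. What part these had in the members' values was not tested.

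In CyrKO cerebellum 6 members were tested, none passed, and none had an unadjusted edgeR p under 0.05. All 6 overlapped between the groups. Over all 13664 genes tested, 0.022% passed, 4.05% did not overlap, and DESeq2 called no member. The members' log2 differences from WT cerebellum ran from -0.08 to 0.07, with adjusted p-values of 0.779 to 0.999. Nefh stood at 127, 91.8, 142 and 123 CPM in CyrKO cerebellum, against 121, 131, 124 and 121 CPM in WT cerebellum. Replicate 2 lay below all others and replicate 3 above them, and the log2 difference was -0.03 (SE 0.10, 95% interval -0.23 to 0.17). Spp1 stood at 19.7, 8.79, 20.5 and 21.4 CPM in CyrKO cerebellum, against 19.4, 16.8, 14.3 and 16.7 CPM in WT cerebellum. The difference was 0.07 (SE 0.20, 95% interval -0.33 to 0.47), and 0.29 without CyrKO replicate 2.

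Slc17a6 stood at 21, 8.89, 18.6 and 18.6 CPM in CyrKO cerebellum, against 17.8, 18.8, 10.8 and 16.7 CPM in WT cerebellum, with the lowest value of each group in a single library. Its log2 difference was 0.06 (SE 0.22), and 0.27 without CyrKO replicate 2. Slc6a5, at 41.8 CPM in that library against 43.4 to 44.7 CPM in the other CyrKO cerebella, averaged 43.4 ± 1.19 CPM in CyrKO cerebellum and 45.9 ± 3.53 CPM in WT cerebellum (SD, n = 4 each), a difference of -0.08 (SE 0.071, 95% interval -0.22 to 0.06). Nefm averaged 147 ± 27.1 CPM in CyrKO cerebellum and 152 ± 5.32 CPM in WT cerebellum, a difference of -0.05 (SE 0.11), and 0.08 without CyrKO replicate 2. Nefl differed by -0.00 (SE 0.091). Glra1 held 6, 1, 6 and 12 reads in CyrKO cerebellum, against 11, 8, 2 and 7 reads in WT cerebellum, and was too low to be tested.

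In Mir7DKO cerebellum of experiment 1B, compared with the same WT libraries, 6 members were tested and none passed, none had an unadjusted edgeR p under 0.05, and DESeq2 called none. Here 0.00713% of 14031 genes passed and 2.59% did not overlap, and all 6 members overlapped. Slc17a6 stood at 16.6, 39.6, 11.3 and 11.2 CPM in Mir7DKO cerebellum, against 17.8, 18.8, 10.8 and 16.7 CPM in WT cerebellum. Its log2 difference of 0.31 (SE 0.36, 95% interval -0.39 to 1.00) became -0.32 without Mir7DKO replicate 2, with an edgeR adjusted p of 0.960. Nefm stood at 150, 146, 134 and 133 CPM in Mir7DKO cerebellum, against 154, 159, 150 and 147 CPM in WT cerebellum, a difference of -0.11 (SE 0.059, 95% interval -0.23 to 0.00). Nefh, Nefl, Slc6a5 and Spp1 differed by -0.05 to -0.01, each with an SE under 0.1. Oligodendrocyte markers summed to 6817 to 8832 CPM in Mir7DKO cerebellum, highest in replicate 2, against 8259 to 8846 CPM in WT cerebellum, and their part in the values of Nefm was not tested. Glra1 held 6, 10, 4 and 3 reads in Mir7DKO cerebellum and was not tested.

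Set directly against each other, CyrKO and Mir7DKO cerebellum of experiment 1B, which share their WT libraries, were compared in 6 members, and none passed (0.0507% of 13814 genes did). The differences of CyrKO minus Mir7DKO ran from -0.24 for Slc17a6 (SE 0.37, 95% interval -0.97 to 0.49) to 0.11 for Spp1 (SE 0.20, 95% interval -0.28 to 0.50), with edgeR adjusted p-values of 0.843 to 0.949. Both rest on the libraries that stood apart. With each library left out in turn, Slc17a6 ran from -0.44 to 0.39 and Spp1 from -0.00 to 0.33. No member had an unadjusted p under 0.05.

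In Mir7DKO cerebellum of experiment 2 all 7 members were tested and none passed. All 7 had a negative log2 difference from WT cerebellum, with a median of -0.15 against -0.00 over all genes. Leaving out single libraries turned Nefm and Nefl positive, at up to 0.04 each. Members other than Slc6a5 varied together across cerebellar libraries (below), so these signs are not separate results. Over 14146 genes 0.198% passed, and 6.64% had groups that did not overlap, whereas all 7 members overlapped. DESeq2 called no member. Nefh and Spp1 had an unadjusted edgeR p under 0.05, as did 959 genes. Nefh stood at 119, 118 and 148 CPM in Mir7DKO cerebellum, against 142, 143, 150 and 152 CPM in WT cerebellum. Replicates 1 and 2 lay below all WT values and replicate 3 among them. The log2 difference was -0.19 (SE 0.069, 95% interval -0.33 to -0.06, unadjusted p = 0.0103, edgeR adjusted p = 0.472). Without Mir7DKO replicate 3 it was -0.31 (SE 0.058, edgeR adjusted p = 0.00757). Among the mutant comparisons, no other removal of a single library brought a member past the threshold. Spp1 stood at 21.8, 18.0 and 23.3 CPM in Mir7DKO cerebellum, against 23.2, 26.3, 25.2 and 23 CPM in WT cerebellum, a difference of -0.22 (SE 0.097, unadjusted p = 0.0344, edgeR adjusted p = 0.664).

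Slc17a6 stood at 20.4, 23.2 and 27.1 CPM in Mir7DKO cerebellum of experiment 2, against 24.2, 24.7, 27.4 and 27.6 CPM in WT cerebellum. Its difference was -0.15 (SE 0.096, 95% interval -0.34 to 0.04). Glra1 stood at 1.22, 0.702 and 1.12 CPM in Mir7DKO cerebellum, against 0.810, 1.82, 1.05 and 2.25 CPM in WT cerebellum. The values overlapped. Glra1 differed by -0.56 (SE 0.36), Nefl by -0.05 (SE 0.067), Slc6a5 by -0.05 (SE 0.067) and Nefm by -0.03 (SE 0.071), with edgeR adjusted p-values from 0.854 to 0.968. Choroid plexus markers summed to 34.6 to 751 CPM in these Mir7DKO cerebella, against 35.7 to 41.5 CPM in WT cerebella, and 6 of 9 tested passed as higher (Ttr by a log2 difference of 6.01, edgeR adjusted p = 0.000912). Thalamus markers summed to 411.8 to 476.7 CPM in Mir7DKO cerebella, against 484.5 to 499.8 CPM in WT cerebella. Within that sum, Calb2 stood at 255 to 325 CPM in Mir7DKO cerebella against 332 to 350 CPM in WT cerebella, whereas Prkcd, Tcf7l2 and Lhx9 overlapped. What part these lists had in the members' values was not tested. A difference in the change of Mir7DKO relative to WT between experiments 2 and 1B was tested in all 7 members and none passed, with edgeR adjusted p-values of 0.999, no unadjusted p under 0.05, and 0% of all genes called.

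In Mir7DKO cortex 5 members were tested against WT cortex and none passed by edgeR or DESeq2, with no unadjusted edgeR p under 0.05. All 5 overlapped, where 0.0436% of 13754 genes passed and 7.26% did not overlap. Nefm stood at 264, 259 and 307 CPM in Mir7DKO cortex, against 258, 256, 259 and 249 CPM in WT cortex, a log2 difference of 0.09 (SE 0.055, 95% interval -0.02 to 0.20). Replicate 3 lay above the other libraries. Slc17a6 stood at 41.4, 40.4 and 42.6 CPM in Mir7DKO cortex, against 52.3, 37.2, 47.1 and 43.8 CPM in WT cortex, a difference of -0.15 (SE 0.088, 95% interval -0.32 to 0.03). Nefh, Spp1 and Nefl differed by 0.10 (SE 0.085), 0.07 (SE 0.17) and 0.00 (SE 0.049). Slc6a5 held 0, 2 and 2 reads in Mir7DKO cortex. Of 13 marker lists, 2 had higher sums in Mir7DKO cortex without overlap, and 1 had lower sums. Microglial markers summed to 398.4 to 421.6 CPM in Mir7DKO cortex, against 373.7 to 396.7 CPM in WT cortex. Those of astrocytes summed to 7374 to 7697 CPM in Mir7DKO cortex, against 6721 to 7126 CPM in WT cortex. Choroid plexus markers summed to 36.3 to 40.4 CPM in Mir7DKO cortex, against 41.7 to 439.7 CPM in WT cortex, and 1 of 7 tested passed as lower. What part these lists had in the members' values was not tested.

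A difference in the change of Mir7DKO relative to WT between cerebellum and cortex was tested in all 7 members, and none passed (0.155% of 14886 genes did). Nefh came nearest, at -0.19 in cerebellum against 0.10 in cortex, a difference of -0.29 (SE 0.12, unadjusted p = 0.0198, edgeR adjusted p = 0.987), and it was the one member with an unadjusted p under 0.05.

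**Figure D4:**
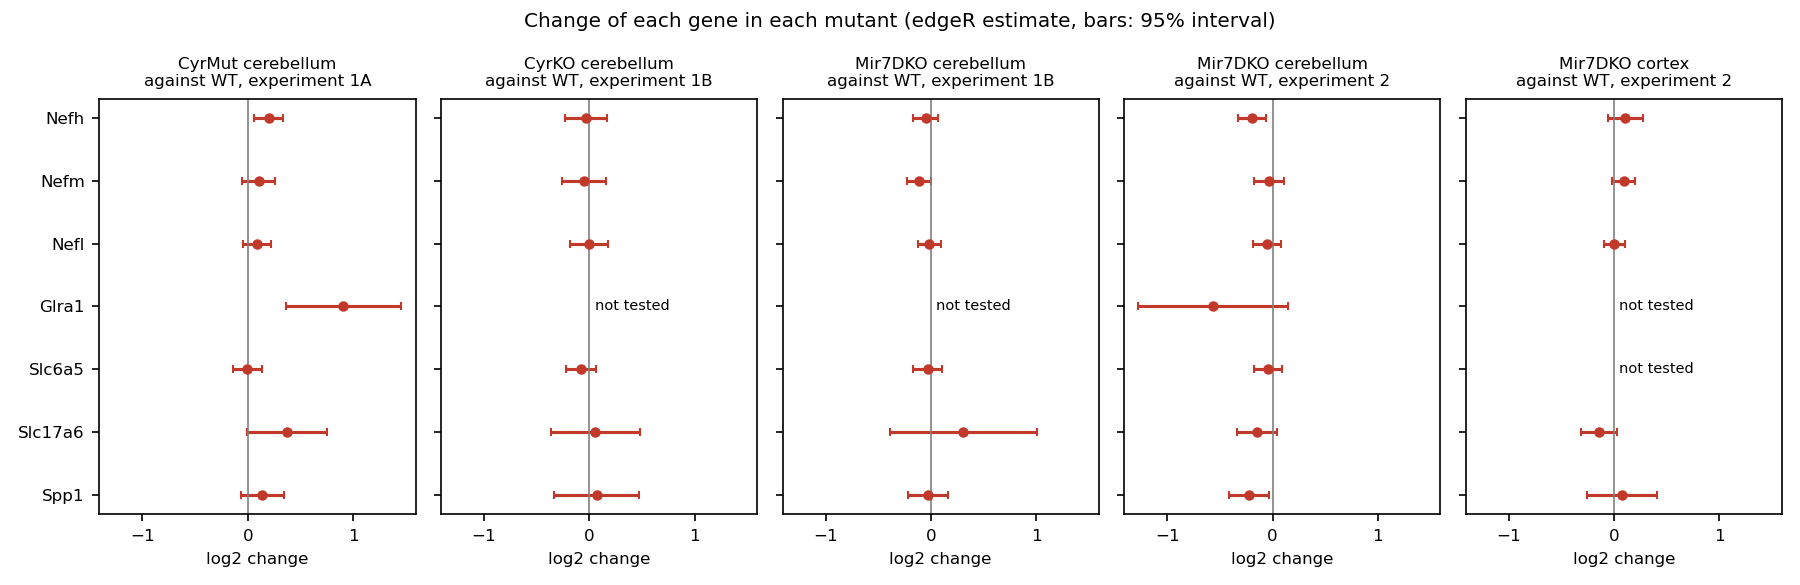
Log2 difference of mutant over WT for each of the 7 genes in the 5 mutant comparisons, with 95% intervals from the edgeR fit. In CyrMut cerebellum Nefh (0.20) and Glra1 (0.91) have intervals above 0, and in Mir7DKO cerebellum of experiment 2 Nefh (-0.19) and Spp1 (-0.22) have intervals below 0, with none past the adjusted test.

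Of the genes of the same pathways, 1 passed in the 5 mutant comparisons. In CyrMut cerebellum none of 66 tested pathway genes passed by edgeR or DESeq2 and 5 (7.58%) had an unadjusted p under 0.05, against 4.98% of all genes, with a median log2 difference of -0.02. The smallest p-values among neurofilament partners were those of Stmn2, a tubulin-binding growth protein, at -0.13 (SE 0.046), and of the kinesin Kif5b at 0.18 (SE 0.069). Among glycine genes they were those of Gcsh at 0.18 and Slc32a1 at -0.10, among vesicular genes that of Slc17a7 at -0.10, among osteopontin relatives those of Itga4 at 0.28 and Dmp1 at -0.22, and among fast-firing genes that of Syt2 at -0.13.

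In CyrKO cerebellum none of 65 passed by edgeR or DESeq2 and 9 (13.8%) had an unadjusted p under 0.05, against 7.35% of all genes. Slc32a1 stood at 76.5 ± 6.43 CPM in CyrKO cerebellum and 95.6 ± 4.39 CPM in WT cerebellum (SD, n = 4 each), a log2 difference of -0.32 (SE 0.068, edgeR adjusted p = 0.598). It was followed among the glycine genes by Slc6a9 at -0.27 (SE 0.081). Tubb3, a neuronal tubulin, and Kif5b differed by -0.23 and 0.14, Slc17a7 by -0.15, the integrin subunits Itga4 and Itgav by 0.25 and 0.20, and the complexin Cplx1 by -0.14. In Mir7DKO cerebellum of experiment 1B none of 66 passed by either tool and 3 (4.55%) had an unadjusted p under 0.05, against 3.68% of all genes. The smallest p-values were those of the growth cone protein Gap43 at -0.21 and Trim2 at -0.11, Gcsh at -0.21 and Glra2 at -0.44, the vesicle proteins Sv2c at -0.11 and Sv2b at -0.06, Itgb1 at -0.10 and Itgb3 at -0.26, and Syt2 at -0.11 and the potassium channel Kcna2 at -0.20.

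In Mir7DKO cerebellum of experiment 2, 1 of 66 passed by edgeR and 1 by DESeq2, and 7 (10.6%) had an unadjusted p under 0.05, against 6.78% of all genes. Nes, the intermediate filament nestin of progenitors and vessels, rose to 25.1 ± 2.21 CPM in Mir7DKO cerebellum (n = 3), against 16.1 ± 3.59 CPM in WT cerebellum (n = 4), a log2 difference of 0.62 (SE 0.12, edgeR adjusted p = 0.0315). The folate and glycine enzymes Shmt2 and Gldc differed by -0.31 (edgeR adjusted p = 0.191) and 0.20, Slc32a1 and Sv2b by -0.15 and -0.09, Itga8 and Itgb5 by 0.56 (edgeR adjusted p = 0.469) and -0.14, and Nrn1 and Cplx1 by 0.15 and 0.12. In Mir7DKO cortex none of 67 passed by either tool and 7 (10.4%) had an unadjusted p under 0.05, against 5.77% of all genes. Nes differed by 0.37 there (edgeR adjusted p = 0.692) and Kif5a by -0.14. The others with the smallest p-values were Gldc at 0.19, Amt at 0.16, Sv2a at -0.04, Slc32a1 at 0.07, Itgb1 at 0.12, Itga8 at -0.18, Vamp1 at -0.13 and Hcn2 at -0.11.

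Across the 26 cerebellar libraries the members other than Slc6a5 varied together. Correlations were computed on log2(CPM + 1) after each group's mean was removed, for all 21 pairs of members, with permutation within groups (two-sided, 100000 resamples) and adjustment over the 21 pairs. All 21 Pearson coefficients were positive, 14 passed an adjusted p of 0.05, and 12 passed by both Pearson's r and Spearman's rho. Nefm and Nefl were the closest pair, with r = 0.928 and rho = 0.907 (permutation p = 6e-05, adjusted p = 0.00126). Within experiments 1A, 1B and 2, r was 0.877, 0.971 and 0.853, and it was 0.855 without the 2 libraries farthest from the median of Nefm. Nefh and Nefm had r = 0.893 and rho = 0.80 (permutation adjusted p = 0.00798), and Nefh and Nefl r = 0.813 and rho = 0.724 (permutation adjusted p = 0.0119).

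Spp1 went with Nefl (r = 0.861, rho = 0.737, permutation adjusted p = 0.00413) and with Nefm (r = 0.846, rho = 0.694, permutation adjusted p = 0.00824). Its r with Nefh, 0.723 (rho = 0.372, permutation adjusted p = 0.0632), did not pass and was 0.362 without 2 libraries. Slc17a6 went with Nefm (r = 0.674, rho = 0.792, permutation adjusted p = 0.00413), and Glra1 with Nefl (r = 0.668, rho = 0.577, permutation adjusted p = 0.00413). The 14 pairs past the threshold were positive within each of the 3 experiments, the lowest at 0.136, and ran from 0.462 to 0.855 without 2 libraries. Those left out lay farthest from the median of only 1 gene of each pair, the one named earlier in the opening list. They therefore differed between pairs. For Slc17a6 with Nefh, Nefm or Nefl, Mir7DKO replicate 2 of experiment 1B was kept. None of the 6 pairs with Slc6a5 passed, with r from 0.195 to 0.384.

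The relation rested in part on CyrKO replicate 2. Without that library 7 pairs passed, and without Mir7DKO replicate 2 of experiment 1B 15 pairs passed, with Slc6a5 and Slc17a6 added (r = 0.545, permutation adjusted p = 0.0448). Nefm and Nefl kept r = 0.847 without CyrKO replicate 2 (permutation adjusted p = 0.00567), whereas Nefm and Spp1 had 0.60 (permutation adjusted p = 0.0852) and Nefh and Nefl 0.615 (permutation adjusted p = 0.102). In the 11 WT cerebella alone all 21 coefficients were positive, from 0.153 to 0.865. There 6 had an unadjusted permutation p under 0.05 and none passed adjustment, the lowest adjusted p being 0.0717.

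**Figure D5:**
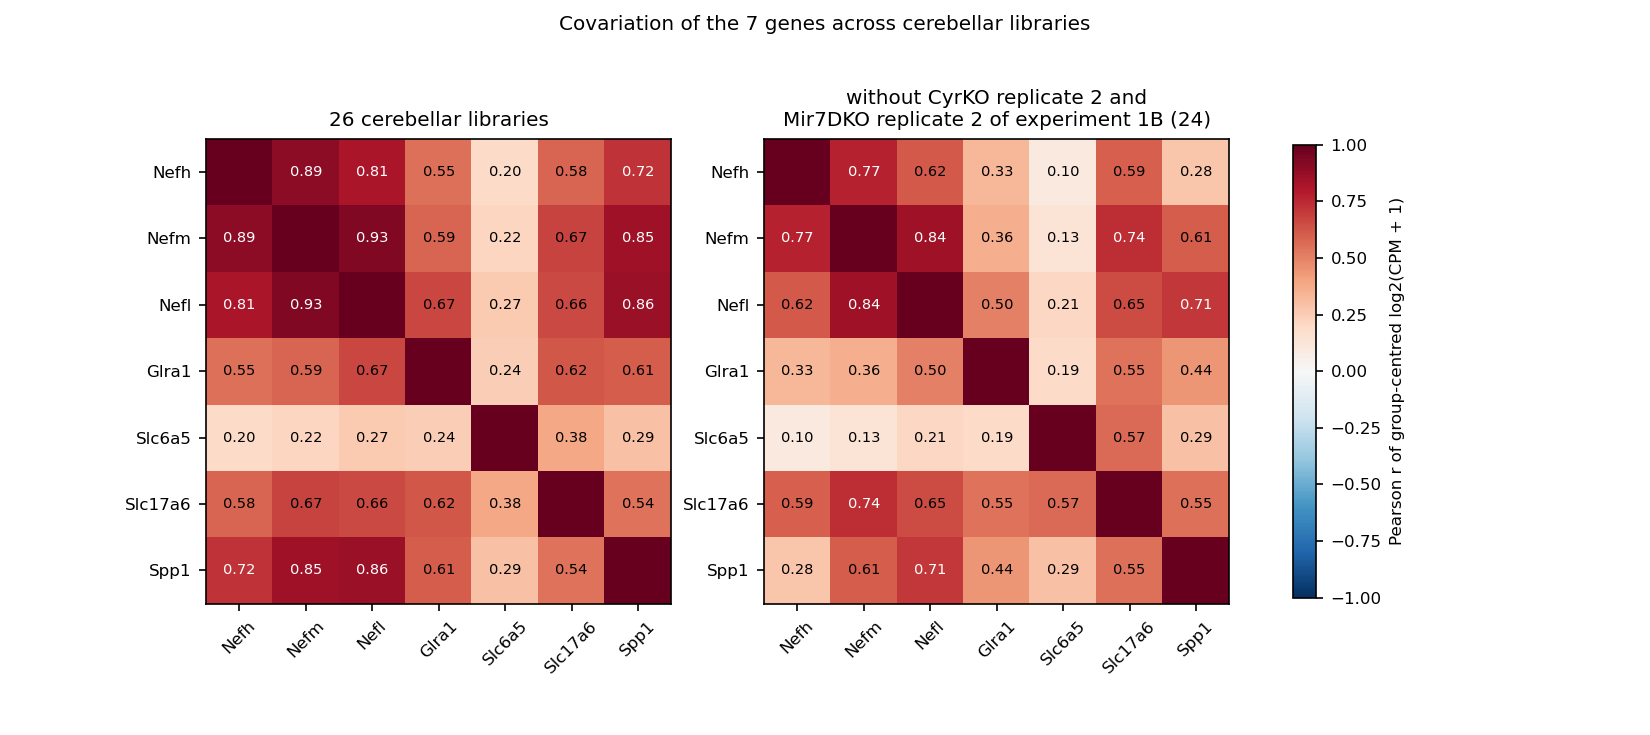
Pearson's r for each pair of members, from log2(CPM + 1) with group means removed, over 26 cerebellar libraries (left) and over the 24 that remain without CyrKO replicate 2 and Mir7DKO replicate 2 of experiment 1B (right). Nefm and Nefl are highest in both, at 0.928 and 0.845, and on the left the 6 pairs with Slc6a5 lie between 0.195 and 0.384.

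The 5 genes most like each member by the same measure, among genes with at least 5 CPM, included other members and myelin genes. For Nefm they were Nefl, Mobp (r = 0.894), Nefh, Trim36 (0.883) and Spp1, and for Nefl they were Nefm, Spp1, Mobp (0.860), Nefh and Mog (0.802). Mobp and Mog encode myelin proteins of oligodendrocytes. For Nefh they were Nefm, Clgn (0.853), Trim36 (0.833), Nefl and Aspa (0.807), which encodes an oligodendrocyte enzyme. Spp1 was most like Mobp (0.888), Nefl, Nefm, Ermn (0.811) and Apod (0.810). Slc17a6 was most like Gsn (0.873), Enpp6 (0.844), Itgb4, Miat and Tspan2 (0.827 each), and Glra1 like Slc44a1 (0.802), Vps8 (0.770), Pam (0.763), Tppp (0.760) and Pex5l (0.748). Without CyrKO replicate 2 and Mir7DKO replicate 2 of experiment 1B these coefficients were lower. For Slc17a6 they were 0.574 with Gsn, 0.625 with Enpp6 and 0.530 with Miat, a gene that was itself high in that Mir7DKO library (38.9 CPM, against 12.2 to 16.1 CPM in the others of its group). For Spp1 they were 0.592 with Mobp and 0.454 with Ermn. Those of Nefm ran from 0.609 to 0.845, of Nefl and Nefh from 0.617 to 0.845 and 0.617 to 0.808, and of Glra1 from 0.639 to 0.716.

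Slc6a5 shared none of these genes: its nearest were Heatr5b (0.780), Tbcd (0.760), Sort1 (0.730), Rassf4 (0.716) and Tmem245 (0.711), and without those libraries they ran from 0.709 to 0.780. An r above 0.7 was rare for any member, at 0.0539% (Slc6a5) to 0.333% (Slc17a6) of 11126 genes. These coefficients describe 26 libraries that share tissue and processing, and carry no p. The oligodendrocyte sums given above moved with the neurofilament genes and Spp1 in CyrKO replicate 2, and their part in the covariation was not tested.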

How the data were processed

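Per the labels' protocols, RNA was taken from flash-frozen tissue with Trizol, and stranded libraries were prepared from its polyadenylated fraction. The deposited files are 5 tables of whole-number counts, 1 row per gene. STAR 2.4, HTSeq 0.6.1p1, DESeq2 1.10 and the builds mm10 and GRCm38 are credited to the submitters' processing notes. How strand and reads with several matches were handled, and the annotation release, is not given in the sources used. The deposited tables also hold a normalised signal (counts over a size factor), a log2 fold change, a test score with its standard error, and a p-value, per the file headers. None of these entered the results. In the CyrMut counts, 1 record (Myo15) lacked a cell, which was put back in place.

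Libraries were grouped by the labels and compared within 1 experiment. The members, gene lists and tests were chosen with earlier results of these data known. The test was edgeR 4.0.16 under R 4.3.3, on counts that passed filterByExpr with a minimum of 10. It used TMM scaling and the quasi-likelihood F-test, no covariates, the libraries of each comparison alone, and a threshold of 0.05 after Benjamini-Hochberg adjustment over every gene tested. The SE is the log2 difference divided by the root of F. Intervals of log2 differences are 1.96 SE to either side, a normal approximation that runs narrower than the F-test with few libraries. CPM uses library sizes scaled by TMM over all 33 libraries, and is divided by transcript length (GENCODE annotation, GRCm38) where genes are compared. Intervals on reads cover counting error only. Simulated data had 200 genes changed at once. There edgeR recovered 84.5% (CyrMut) to 95.9% (WT tissues) of 2-fold changes and 66.3% to 84.8% of 1.5-fold changes in the same comparisons. In the difference of the Mir7DKO change between tissues it recovered 75.8% and 55.6%. From 5 (that difference) to 19 (CyrMut) unchanged genes were called as well. Far fewer genes passed in the mutant comparisons, where adjustment is stricter, so these shares overstate the recovery of a lone changed gene there. Correlations used NumPy 2.4.6, SciPy 1.17.1 and pandas 2.3.3.

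All 7 members are named. Beyond them, the 5 most similar genes per member are named, and pathway genes that passed (at most 6 a list, by p) or, where none passed, the 2 with the smallest p. A few genes of these lists are counted but not reported here by name. Cell type marker lists are given as sums. Alternatives were DESeq2 1.42.0, DESeq2 size factors, no filter on low counts, a replicate block, 1 fit per experiment, a pseudocount of 0.1 in the correlations and leaving out each library.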

Additional observations from a re-analysis of the deposited data

Results flagged for a closer look

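Each member was checked in each group of 4 libraries for a library far from the others, 42 checks in all, and chance flags about 1 in 20 such groups. Nefm in CyrKO replicate 2 was the lowest of its group at 106.6 CPM, against 157.7 to 164.9 CPM in the other CyrKO cerebella. Spp1 in the same library was the lowest at 8.788 CPM, against 19.69 to 21.45 CPM in the others. Both values belong to the library in which all 16 oligodendrocyte markers were the lowest of the group.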

How the results depend on the processing

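Glra1, not tested between WT tissues with the filter on low counts, passed without it (1.19). In that fit the adjusted p-values of the members tested in both were smaller too, so this pass is weak. No call of a member tested in the main analysis changed with DESeq2, with DESeq2 size factors in edgeR, without the filter on low counts, with the replicate block or with 1 fit per experiment, and 14 pairs of members varied together with a pseudocount of 1 or 0.1. Of the members' changes, 212 kept direction and call under these and 6 turned sign, all of them near 0: Slc6a5 in CyrMut (0.00697 with the replicate block), Nefl in CyrKO (0.00122 with DESeq2 size factors, 0.00629 with all 12 libraries in 1 fit), Nefl in Mir7DKO cortex (-0.000461 with DESeq2 size factors, -0.000182 with DESeq2) and Slc17a6 in the tissue difference (0.00411 with DESeq2 size factors). The cause was not tested.

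Counts of genes called over all genes moved more. Without the filter they were 43 for CyrMut against 1 with it, 10 for CyrKO (3) and 4 for Mir7DKO of experiment 1B (1). In experiment 2 they were 184 in Mir7DKO cerebellum (28), 48 in Mir7DKO cortex (6) and 74 in the difference between tissues (23). They were 19 in the difference between experiments (0) and 66 in CyrKO against Mir7DKO (7). Dropping the filter adds genes of few reads, and it also moved the p-values of abundant genes. For Nefh in Mir7DKO cerebellum of experiment 2 the edgeR adjusted p was 0.133, against 0.472 with the filter. DESeq2 called 4 in CyrMut and 3 in Mir7DKO of experiment 1B, and 1 fit of all 14 libraries called 55 in Mir7DKO cerebellum of experiment 2. Correlations of same-numbered libraries ran from -0.33 to 0.44 over the comparisons. In Mir7DKO against WT cortex all 3 correlated best with their own number, a hint from the data and not the design. So did 2 of 3 in CyrMut, 2 of 4 in Mir7DKO of experiment 1B, 1 of 3 in Mir7DKO cerebellum of experiment 2, and 0 of 4 in CyrKO and between WT tissues. These values cannot settle whether replicate numbers pair the libraries. With the replicate block 2 genes were called in Mir7DKO of experiment 1B and 19 in Mir7DKO cortex.

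Leaving out each library in turn gave 1 to 17 genes called in CyrMut (17 without CyrMut replicate 2), 3 to 10 for CyrKO, 0 to 2 for the Mir7DKO cerebella of experiment 1B, 3 to 70 in Mir7DKO cerebellum of experiment 2 (70 without Mir7DKO replicate 3), 4 to 11 in cortex, 10190 to 10446 between WT tissues, 1 to 48 in the difference between tissues, 0 to 1 in that between experiments and 3 to 99 in CyrKO against Mir7DKO (99 without Mir7DKO replicate 1). Members called were 0 to 1 in Mir7DKO cerebellum of experiment 2 and 6 to 7 between WT tissues.

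Of the members' changes under this, 472 kept direction and call and 55 turned sign. Their ranges in CyrKO were Nefh -0.122 to 0.0796, Nefm -0.109 to 0.0786, Nefl -0.0552 to 0.104, Slc17a6 -0.0772 to 0.269 and Spp1 -0.0447 to 0.293. In CyrMut the range was Slc6a5 -0.0518 to 0.0764. In Mir7DKO of experiment 1B the ranges were Nefl -0.0429 to 0.0235, Slc17a6 -0.316 to 0.506, Slc6a5 -0.0733 to 0.00823 and Spp1 -0.0948 to 0.0499. In Mir7DKO cerebellum of experiment 2 they were Nefl -0.15 to 0.0427 and Nefm -0.167 to 0.0412, and in cortex Nefl -0.0554 to 0.0372 and Spp1 -0.0961 to 0.26. In the difference between tissues they were Nefl -0.147 to 0.0471, Slc17a6 -0.11 to 0.0967 and Slc6a5 -0.662 to 0.267, and in that between experiments Glra1 -0.378 to 0.147, Nefl -0.135 to 0.0566, Nefm -0.0525 to 0.154, Slc17a6 -0.654 to 0.179 and Slc6a5 -0.049995 to 0.0317. In CyrKO against Mir7DKO they were Nefh -0.0719 to 0.139, Nefl -0.031 to 0.128, Slc17a6 -0.439 to 0.388 and Spp1 -0.00389 to 0.334. No member's difference between WT tissues turned sign.

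Pairs of members that varied together numbered 7 to 15 when CyrKO replicate 2, Mir7DKO replicate 2 of experiment 1B or both were left out (7, 15 and 8), alternatives chosen after seeing the data, and 0 in WT cerebella alone, where 11 libraries remain. Reads limit Glra1 everywhere and Slc6a5 in cortex, and with 3 or 4 libraries a group the smallest changes of the mutants were not detectable.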
